A study of Mus musculus with 6 samples.

Results

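This account covers 10 chemokine ligand genes, Ccl1, Ccl3, Ccl4, Ccl5, Ccl17, Ccl22, Cxcl2, Cxcl10, Cxcl16 and Xcl1, in type 2 innate lymphoid cells (ILC2s). They were taken by exact gene name from a table of 53278 genes, and all 10 had a row. The RNA came from ILC2s sorted from visceral adipose tissue of C57BL/6 mice aged 8 weeks, which had received 3 intraperitoneal injections of 1 µg of IL-33, an alarmin that activates ILC2s. Cells of both groups were kept for 48 h in IL-2 and IL-7, each at 10 ng/mL, and differed in the antibody added. One group received DTA-1 at 5 µg/mL, an agonist of the TNF receptor family member GITR, and the other received the isotype control. Each group had 3 libraries. The labels do not say whether these came from separate mice, so p-values measure the spread between these libraries, which may be technical. The study's text also gives a shorter culture time.

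Chemokines are small secreted proteins that direct the movement of cells through G protein-coupled receptors, and they are classed by the spacing of their first cysteines as CC (Ccl), CXC (Cxcl) or XC (Xcl). Ccl1 is a ligand of Ccr8. Ccl3, Ccl4 and Ccl5 attract monocytes and T cells, Ccl3 and Ccl5 bind Ccr1, and Ccl17 and Ccl22 are the ligands of Ccr4. Cxcl2 draws neutrophils through Cxcr2, Cxcl10 is an interferon-induced ligand of Cxcr3, Cxcl16 is a membrane-bound ligand of Cxcr6 that proteases can release, and Xcl1 binds Xcr1 on dendritic cells. ILC2s are known as a source of type 2 cytokines and can also make chemokines that recruit or retain other leukocytes.

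The total count was 30569351 to 35131329 per library, and the depth sets a limit for genes with no reads. A count of 0 allows up to 3 counts, equal to 0.0847 to 0.0970 normalized counts (CPM after TMM normalization), a limit that accounts for counting error alone. The ILC2 markers Gata3, Il1rl1, Il7r, Rora and Klrg1 were at 84.4 normalized counts or more in every library. The neutrophil markers S100a8 and S100a9, the NK cell markers Ncr1 and Klrb1c and the B cell markers Ms4a1 and Pax5 were at 0 in all 6 libraries. Other markers of these cells were not: the B cell gene Cd79b had 16.4 to 17.8 normalized counts and Cd79a 0.502 or less. Among the neutrophil and NK cell markers the highest was Prf1, at 1.54 or less. Cd3g, a gene of the T cell receptor complex, had 36.2 to 48.6 normalized counts. Between pairs of libraries the chi-square of the counts per degree of freedom was 9.64 to 37.9, so none was a copy of another. The library labelled DTA-1 replicate 1 was nearer to the controls (9.64 to 11.3) than to DTA-1 replicates 2 and 3 (27.1 and 28.2). It was kept under its label, and results that rest on it are given with and without it.

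The label of these genes as made by ILC2s fitted the read counts in part: 5 of the 10 had almost no reads, and 1 was above 3 normalized counts on average. Ccl22 and Xcl1 had 0 counts in all 6 libraries, and Ccl3 had 2 counts, both in DTA-1 replicate 2. Ccl17 had 3, 0 and 0 counts with the isotype and 0, 4 and 3 with DTA-1. Ccl4 had 2, 2 and 0 counts with the isotype and 6, 0 and 8 with DTA-1. These 5 genes were at or near the limit of detection, so no fold change is given for them. Cxcl10, Ccl1, Cxcl16 and Ccl5 had 44 to 174 counts summed over the 6 libraries, and Cxcl2 had 1173. Not one of the 10 genes reached a mean of 10 normalized counts.

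**Figure D1:**
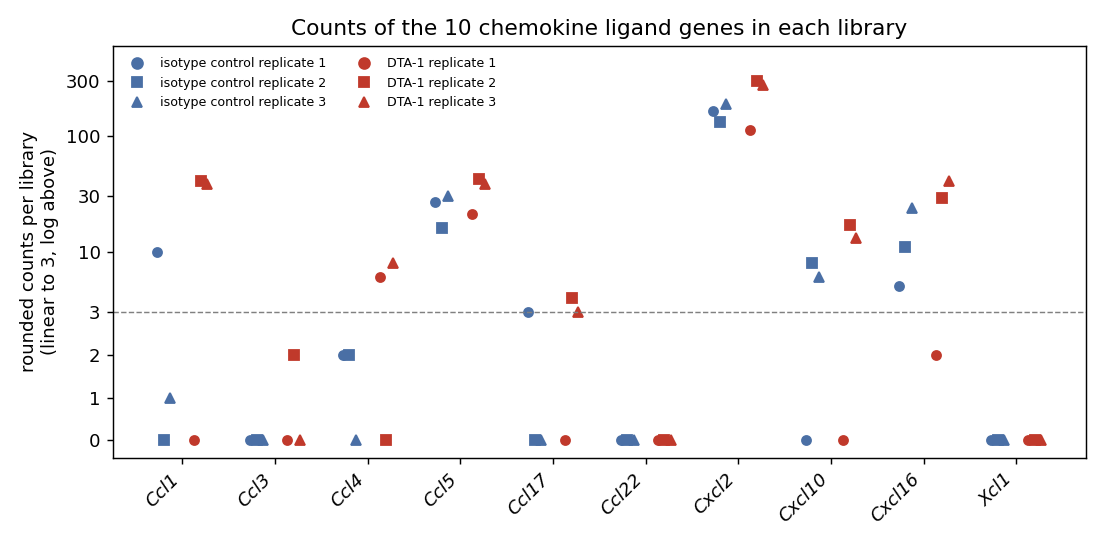
Rounded counts of the 10 genes (horizontal axis) in each of the 6 libraries (points; blue, isotype control; red, DTA-1; the symbol gives the replicate number), on an axis that is linear up to 3 counts (dashed line) and logarithmic above. Ccl22 and Xcl1 lie at 0 throughout, and for Ccl1, Ccl5, Cxcl2, Cxcl10 and Cxcl16 DTA-1 replicates 2 and 3 lie above the isotype control points while DTA-1 replicate 1 lies among or below them.

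The members were also a small part of the chemokine ligand reads in these cells. Of all reads assigned to the 40 ligand genes in the table, the 10 members held 1.00% to 1.34% with the isotype and 0.886%, 1.94% and 1.93% in DTA-1 replicates 1, 2 and 3. Cxcl3, another ligand of Cxcr2 that is no member, held 95.5% to 97.1% of them in every library. It had 501 ± 32.0 normalized counts with the isotype and 613 ± 98.6 with DTA-1 (SD, n = 3 each), against 4.59 ± 0.783 and 7.28 ± 3.18 for Cxcl2, the most abundant member. Among the other 30 ligand genes 11 were at 0 in all libraries, and after Cxcl3 the highest means were those of Ccl25, with 5.73 ± 0.518 and 5.37 ± 0.186 normalized counts with the isotype and DTA-1, and Cxcl5, with 2.73 ± 0.586 and 2.14 ± 0.280.

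Levels of different genes were compared per kilobase of exon. Cxcl2 stood highest among the members, at 2.22 ± 0.379 normalized counts per kb with the isotype and 3.52 ± 1.54 with DTA-1 (SD, n = 3 each). Ccl5 followed at 0.718 ± 0.216 and 1.12 ± 0.363 per kb, and its libraries did not overlap those of Cxcl2. Below these, Ccl1 was at 0.0437 ± 0.0657 and 0.352 ± 0.306 per kb, Cxcl16 at 0.125 ± 0.0911 and 0.251 ± 0.208, Ccl4 at 0.0573 ± 0.0496 and 0.225 ± 0.199, Cxcl10 at 0.0589 ± 0.0526 and 0.141 ± 0.126, and Ccl17 at 0.0549 ± 0.0952 and 0.144 ± 0.129. The order among these 5 genes was within the spread of their libraries. Cxcl3 was at 143 ± 9.15 per kb with the isotype and 175 ± 28.2 with DTA-1. The place of Ccl1 depends on the length used, because its annotated gene includes a long non-coding isoform: with the median transcript length in place of all exons its mean over the 6 libraries was 0.768 instead of 0.198 per kb.

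**Figure D2:**
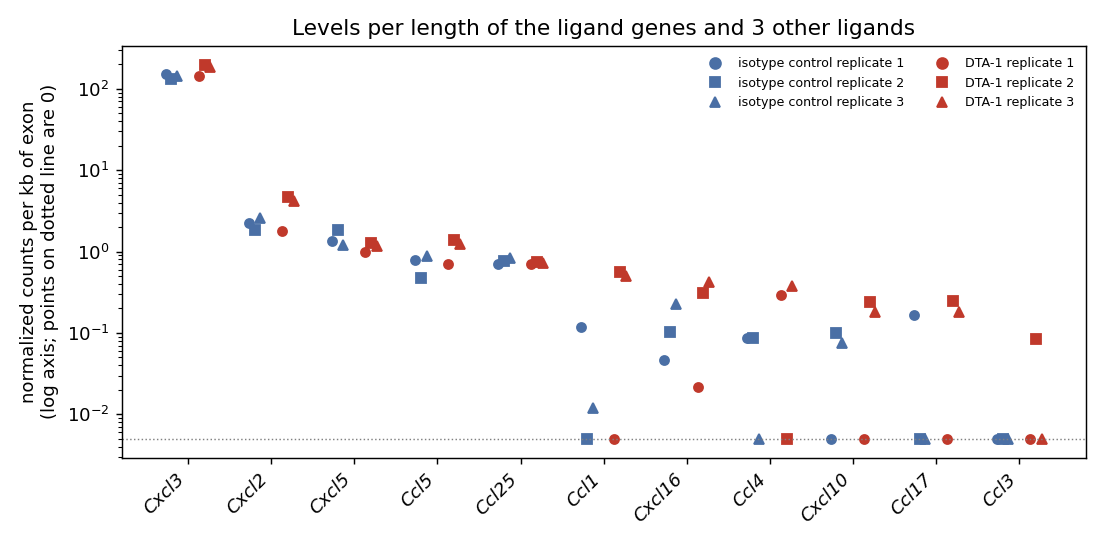
Normalized counts per kilobase of exon (logarithmic axis; points on the dotted line are 0) of the 8 members with any reads and of Cxcl3, Cxcl5 and Ccl25, in each library (blue, isotype control; red, DTA-1; the symbol gives the replicate number). Cxcl3, at 133 or more in every library, lies far above Cxcl2, at 1.77 to 4.63, and the remaining members lie lower.

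The mean with DTA-1 was higher than with the isotype for the 5 members that had at least 20 counts in all, Ccl1, Ccl5, Cxcl2, Cxcl10 and Cxcl16, whereas 47.6% of the 16932 genes with as many counts had a higher mean with DTA-1. The minimum was chosen after the values were seen. Ccl1 and Cxcl10, with 11 and 14 counts with the isotype, reached it only with their DTA-1 counts, so they cannot count towards this comparison. Ccl5, Cxcl2 and Cxcl16 reached it in each group alone. The higher means came from DTA-1 replicates 2 and 3. For Ccl5, Cxcl2 and Cxcl16 both lay above every isotype control library, a pattern found in 14.6% of genes with at least 20 counts. Both also did so for Ccl1 and Cxcl10, which cannot be set against that share. In the library labelled DTA-1 replicate 1 the level of all 5 was below the isotype control mean. Summed over the 10 members, the level was 5.96, 4.84 and 7.08 normalized counts with the isotype and 4.59, 13.9 and 13.0 in DTA-1 replicates 1, 2 and 3. Without Cxcl2 the sums were 1.33, 1.05 and 1.73 against 0.937, 4.32 and 4.42, so the same libraries were high when the most abundant member was left out. In RNA from a whole sorted population, a change in the number of cells that make a transcript and a change in the RNA per cell cannot be told apart.

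DTA-1 was compared with isotype control by edgeR's quasi-likelihood test across all genes, and a gene counted as called when its adjusted p was under 0.05 and it changed 1.5-fold or more. The filter on low counts kept 3 of the 10 members, Ccl5, Cxcl2 and Cxcl16, among 14361 genes. By edgeR 0 of them were called, as were 0% of all tested genes, and limma-trend likewise called 0 members and 0 genes. DESeq2 called 0 members and 0.152% of the genes it tested, and 0 members and 2.35% of genes passed edgeR's unadjusted p under 0.05 with 1.5-fold. Cxcl16 passed the filter only through DTA-1 replicates 2 and 3, in which it was high. It therefore cannot count towards the next comparisons. Ccl5 and Cxcl2 had both DTA-1 replicates 2 and 3 above every isotype control library, as had 15.5% of tested genes. Their log2 fold changes were 0.63 and 0.67, against a median of −0.01 over all tested genes. With DTA-1 replicate 1 left out, 0.744% of the 14911 genes then tested were called, and 0 members were among them.

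Cxcl2 (chromosome 5, 90903871 to 90905938, GRCm38, plus strand) had 4.63, 3.79 and 5.35 normalized counts in isotype control replicates 1, 2 and 3, against 3.65, 9.57 and 8.62 in DTA-1 replicates 1, 2 and 3. DTA-1 replicate 1 was the lowest of all 6 libraries, and DTA-1 replicates 2 and 3 were the highest. The log2 fold change of Cxcl2 was 0.67 (standard error, SE, 0.32, 95% confidence interval −0.05 to 1.38, edgeR adjusted p = 0.707). It was 0.99 with DTA-1 replicate 1 left out (SE 0.22, interval 0.49 to 1.48, edgeR adjusted p = 0.0639) and 0.43 without DTA-1 replicate 2. The adjusted p ranged from 0.0639 to 0.999 over the planned settings. In a pair of further fits without DTA-1 replicate 1, chosen after the values were seen, Cxcl2 was called. With no filter on low counts its adjusted p was 0.0227 by edgeR, and 0.668% of genes were called. By DESeq2's Wald test its adjusted p was 0.0106, and 1.38% of genes were called. Both fits leave out the DTA-1 library in which Cxcl2 was lowest, so these calls are no evidence of a change.

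The count of Cxcl2 is uncertain because part of its transcript is identical to that of Cxcl3, which had far more counts in every library (15564 to 21656, against 113 to 299 for Cxcl2). The pair lie 114 kb apart on the plus strand of chromosome 5. Their coding sequences, each 300 bases long, share their first 98 bases letter for letter, which is the longest run the coding sequences have in common. In GRCm38 it covers coding exon 1 of Cxcl2 (chr5:90903945-90904023) and the first 19 bases of coding exon 2 (chr5:90904116-90904134), and in Cxcl3 chr5:90786171-90786249 and chr5:90786342-90786360. It is shown here, from GENCODE release M21 transcripts and read 5′ to 3′, because a read that falls inside it cannot be placed in either gene by its sequence.
Cxcl2 and Cxcl3, coding bases from the start codon: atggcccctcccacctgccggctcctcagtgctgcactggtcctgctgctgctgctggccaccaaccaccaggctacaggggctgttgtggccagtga
Of the 50-base windows in the coding transcripts of Cxcl2, 3.28% also occur in Cxcl3, and 6.31% of those of Cxcl3 occur in Cxcl2. None of the 50-base windows of the other 9 members occurs, read on the same strand, in a transcript of another gene. On the opposite strand, exons of Cxcl10 share 133 bases with Art3 and those of Xcl1 share 98 with Gm20743. Art3 and Gm20743 were counted at 0 in every library, and the overlap of Cxcl16 is given below. The deposited value of Cxcl2 was not whole in any of the 6 libraries, and that of Cxcl16 was whole in 4 of them. The other 8 of the 10 members had whole values throughout. If reads of 50 bases were spread evenly over Cxcl3, 982 to 1366 of its counts per library would lie in the shared windows, against 113 to 299 counts of Cxcl2. The files do not say how such reads were divided.

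Cxcl2 was not assigned a fixed part of the counts of the pair. It held 0.868% (95% exact binomial interval 0.741 to 1.01), 0.807% (0.676 to 0.956) and 1.04% (0.902 to 1.20) of the Cxcl2 and Cxcl3 counts in the isotype replicates 1, 2 and 3. In DTA-1 replicates 1, 2 and 3 it held 0.721% (0.594 to 0.866), 1.36% (1.21 to 1.52) and 1.32% (1.17 to 1.49). The intervals cover counting error only, and neither the division of shared reads nor the spread between libraries. Cxcl3 itself had 529, 466 and 507 normalized counts with the isotype and 503, 693 and 644 with DTA-1, and DTA-1 replicate 1 again lay among the isotype control libraries. The log2 fold change of Cxcl3 was 0.29 (SE 0.10, edgeR adjusted p = 0.632). With DTA-1 replicate 1 left out it was 0.42 (SE 0.07, edgeR adjusted p = 0.0140, range 0.0140 to 0.999 over the planned settings), short of 1.5-fold. In the pair of further fits its adjusted p was 0.000343 by edgeR with no filter and 2.26e-07 by DESeq2, each with a log2 fold change of 0.42 and so also short of 1.5-fold. All fits without DTA-1 replicate 1 leave out the DTA-1 library in which Cxcl3 was lowest, so these p-values are no evidence of a change.

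**Figure D3:**
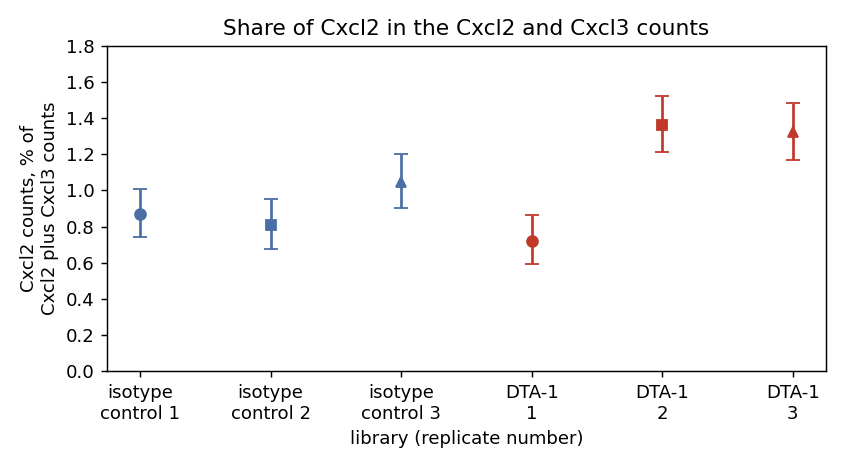
Counts of Cxcl2 as a percentage of the counts of Cxcl2 and Cxcl3 together in each library (blue, isotype control; red, DTA-1; bars, 95% exact binomial intervals, counting error only). DTA-1 replicates 2 and 3, at 1.36% and 1.32%, lie above the other 4 libraries, which are at 0.721% to 1.04%.

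Ccl5 (chromosome 11, 83525778 to 83530518) had 27, 16 and 30 counts with the isotype and 21, 42 and 38 with DTA-1. The isotype control and DTA-1 libraries overlapped through DTA-1 replicate 1. In normalized counts Ccl5 was at 0.689 ± 0.207 with the isotype and 1.07 ± 0.349 with DTA-1 (SD, n = 3 each), with a log2 fold change of 0.63 (SE 0.49, interval −0.44 to 1.71, edgeR adjusted p = 0.813). With DTA-1 replicate 1 left out the log2 fold change of Ccl5 was 0.87 (SE 0.51, edgeR adjusted p = 0.496). Ccl3, Ccl4 and Ccl5 lie within 139 kb on chromosome 11, and Ccl3 and Ccl4 are 13.2 kb apart, but only Ccl5 had more than 8 counts in a library.

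Cxcl16 (chromosome 11, 70453983 to 70459984) had 5, 11 and 24 counts with the isotype and 2, 29 and 41 with DTA-1, so that the lowest and the highest library were both DTA-1 libraries. It was at 0.378 ± 0.275 normalized counts with the isotype and 0.759 ± 0.628 with DTA-1 (SD, n = 3 each). For Cxcl16 the log2 fold change was 1.00 (SE 0.86, interval −0.90 to 2.90, edgeR adjusted p = 0.837), and with DTA-1 replicate 1 left out it was 1.54 (SE 0.71, edgeR adjusted p = 0.376). Without DTA-1 replicate 3 it was 0.39, and without isotype control replicate 3 it was 1.72. With all 6 libraries Cxcl16 passed the filter only through DTA-1 replicates 2 and 3, in which it was high. Its test is therefore no evidence of a change. Exons of Cxcl16 share 552 bases with exons of Zmynd15 on the opposite strand. Since the sources used here do not say whether strand was used in counting, reads of this pair cannot be told apart there, and Zmynd15 was counted at 0 to 13.

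**Figure D4:**
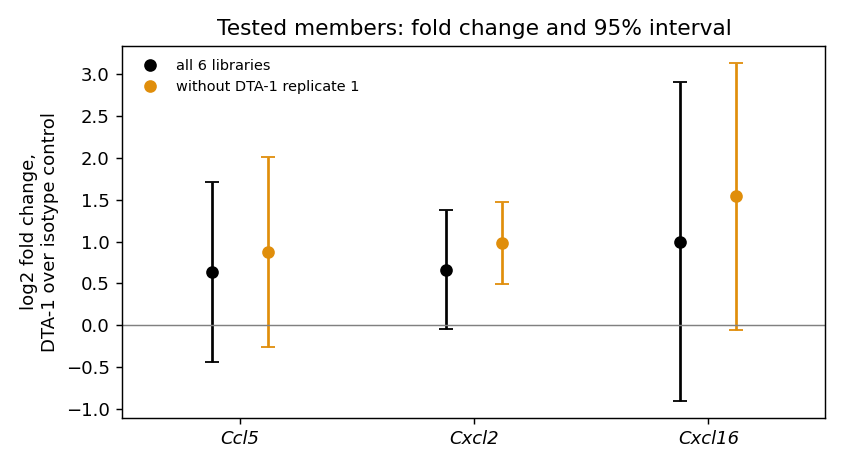
Log2 fold change of DTA-1 over isotype control (points) with its 95% confidence interval (bars) by edgeR for the 3 members that passed the filter on low counts, with all 6 libraries (black) and without DTA-1 replicate 1 (orange). With all 6 libraries each interval includes 0; without DTA-1 replicate 1 that of Cxcl2 lies between 0.49 and 1.48.

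Ccl1 (chromosome 11, 82176657 to 82305690) differed widely between libraries, with 10, 0 and 1 counts with the isotype and 0, 41 and 38 with DTA-1. DTA-1 replicates 2 and 3 thus stood at 1.31 and 1.19 normalized counts, above the 0 to 0.282 of the other 4 libraries, and DTA-1 replicate 1 had no read. The ratio of the group means was 8.06, and it rests on 11 counts with the isotype, 10 of them in replicate 1. Ccl1 was removed by the filter with all 6 libraries. When DTA-1 replicate 1 or any control library was left out it passed, each time through DTA-1 replicates 2 and 3, the libraries in which it was high, so no test of it is given.

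Cxcl10 (chromosome 5, 92346638 to 92348889) had 0, 8 and 6 counts with the isotype and 0, 17 and 13 with DTA-1, so each group held a library with no read. Its group means were 0.133 ± 0.118 and 0.317 ± 0.283 normalized counts (SD, n = 3 each), a difference smaller than the spread in DTA-1. Like Ccl1 it passed the filter only when a library was left out, and through the DTA-1 libraries in which it was high, so no test of it is given.

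Markers of other cell types were also measured. The sort, per the study's methods, left out cells bearing surface markers of T cells (CD3ε, TCRγδ), B cells (CD45R), myeloid cells (CD11b, CD11c, Gr-1), mast cells and basophils (FcεRI) or red cells (Ter119). Most transcripts that mark such cells were low. The summed level of 8 macrophage or monocyte markers was 6.78 to 12.7 normalized counts with the isotype and 9.08 to 11.8 with DTA-1, most of it from Cd68 and Adgre1, while C1qa, C1qb, C1qc, Lyz2 and Csf1r were each below 1 normalized count in every library. For 6 dendritic cell markers the sum was 1.64 to 4.11 and 3.04 to 5.28, with Clec9a at 0 in all libraries. In the list of mast cell or basophil markers 1 gene, Cpa3, a mast cell protease gene, was high in the same libraries as the members, with 265, 256 and 154 counts with the isotype and 211, 605 and 409 with DTA-1. The sum of the 5 markers was 6.60 to 10.8 with the isotype, 8.76 in DTA-1 replicate 1 and 22.4 and 17.3 in DTA-1 replicates 2 and 3 and followed Cpa3. Fcer1a overlapped between the groups, Mcpt8 had 26, 23 and 41 counts against 13, 6 and 22, and Ms4a2 was below 0.3 normalized counts in every library. The sum of the 11 ILC2 markers was 11960 to 12963 with the isotype, 13059 in DTA-1 replicate 1, and 17263 and 16566 in DTA-1 replicates 2 and 3. Most of the difference in the sum was that of Il5, a type 2 cytokine gene, with means of 5321 with the isotype and 8068 with DTA-1. Il2ra (2109 and 2596), Areg (193 and 279), Il13 (70.2 and 90.2) and Rora (412 and 416) also had higher means with DTA-1. The means of Gata3, Il1rl1, Il7r, Klrg1, Icos and Ptprc were lower with DTA-1 than with the isotype. The 6 fibroblast markers summed to 2.19 to 8.38 with the isotype and 0 to 3.98 with DTA-1. The summed markers of T cells were at 40.2 to 53.6 and 45.9 to 50.9. Those of B cells, nearly all from Cd79b, were at 16.6 to 17.3 and 17.2 to 18.2. Those of endothelial cells, nearly all from Pecam1, were at 18.4 to 24.5 and 10.8 to 18.4, with Cdh5 at 0 in all libraries. Neutrophil, NK cell and adipocyte lists stayed below 2 in every library. The part of these markers in the levels of the ligands was not tested.

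The receptors of these ligands were measured in the same cells, and several were far more abundant than the ligands. Cxcr6, the receptor of Cxcl16, had 1932 ± 36.5 normalized counts with the isotype and 1896 ± 107 with DTA-1 (SD, n = 3 each). Ccr8, the receptor of Ccl1, had 60.0 ± 1.24 and 62.2 ± 3.37, and Ccr1, a receptor of Ccl3 and Ccl5, had 66.6 ± 2.99 and 80.6 ± 8.82. Xcr1, whose ligand Xcl1 had no reads, had 46.7 ± 0.872 and 45.6 ± 1.23, and Ccr4, whose ligands Ccl17 and Ccl22 had 10 counts in all, had 23.7 ± 3.94 and 25.0 ± 0.414. The receptors of the CXC members Cxcl2 and Cxcl10 were nearly absent: Cxcr2 and Cxcr3 had no read in the controls, and at most 12 and 10 counts in a DTA-1 library.

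Of the 8 receptor genes considered 6 were tested, and 0 were called by edgeR with all 6 libraries, 0 by DESeq2 and 0 with DTA-1 replicate 1 left out, against 0%, 0.152% and 0.744% of all genes. By the unadjusted p, under 0.05 with 1.5-fold, 1 of the 6 passed, against 2.35% of all genes. It was Ccr3, a receptor of Ccl5, with 6.64 ± 0.774 normalized counts with the isotype and 4.05 ± 1.40 with DTA-1 (SD, n = 3 each). For Ccr3 each DTA-1 library was lower than each control, with a log2 fold change of −0.71 (SE 0.27, edgeR adjusted p = 0.647). For Ccr1 each DTA-1 library was higher than each control, with a log2 fold change of 0.27 (SE 0.09, edgeR adjusted p = 0.628). For Cxcr6, Ccr8 and Xcr1 the log2 fold changes were −0.03, 0.05 and −0.04, with SEs of 0.06, 0.08 and 0.08.

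**Figure D5:**
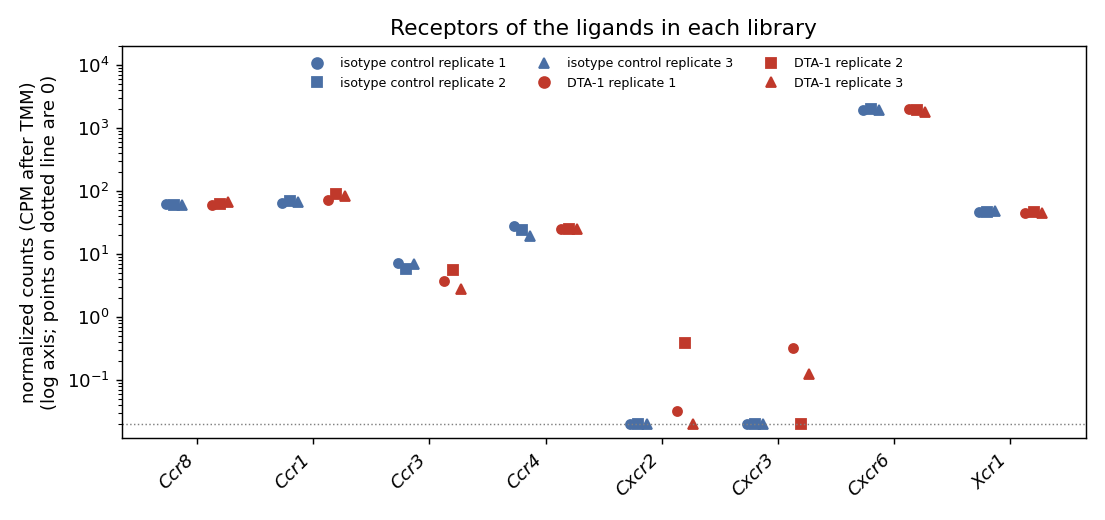
Normalized counts (CPM after TMM normalization, logarithmic axis; points on the dotted line are 0) of 8 receptors of the ligands in each library (blue, isotype control; red, DTA-1; the symbol gives the replicate number). Cxcr6 lies highest, at 1772 to 1962, and Cxcr2 and Cxcr3 lie at 0 in all isotype control libraries.

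The remaining genes of the pathway were few. Of the 30 other ligand genes 10 were tested, 3 higher and 7 lower with DTA-1, and 0 were called by edgeR, 0 by DESeq2, and 0 by the unadjusted p under 0.05 with 1.5-fold, against 0%, 0.152% and 2.35% of all genes. Their median log2 fold change was −0.11, against −0.01 over all tested genes. Several of these ligands were low and uneven, in both directions. Ccl11 had 4, 27 and 72 counts with the isotype and 0, 0 and 28 with DTA-1, and Ccl7 had 16, 18 and 21 against 0, 1 and 21. Ccl2 had 9, 22 and 13 counts with the isotype and 14, 6 and 87 with DTA-1, and Cx3cl1 had 1, 0 and 18 against 16, 6 and 53. Of 5 atypical receptors, which do not signal migration, Ccrl2 alone was tested, with 3.03 ± 1.12 and 3.23 ± 1.18 normalized counts. The proteases Adam10 and Adam17, which can shed Cxcl16 from the membrane, had 148 ± 7.44 and 111 ± 9.82 normalized counts with the isotype and 153 ± 2.76 and 130 ± 12.9 with DTA-1 (SD, n = 3 each), and Dpp4, which trims chemokines, had 7.77 ± 1.74 and 5.75 ± 0.664. Mmp9, a protease that cleaves CXC chemokines, had 21, 34 and 15 counts with the isotype and 33, 516 and 631 with DTA-1. It was at 0.662 ± 0.278 and 12.5 ± 10.0 normalized counts (SD, n = 3 each). Mmp9 was not called with all 6 libraries (log2 fold change 4.23, SE 1.03, edgeR adjusted p = 0.626). It was the 1 gene of these lists called without DTA-1 replicate 1 (log2 fold change 4.77, edgeR adjusted p = 9.08e-05), where 0.744% of all genes were called. That fit leaves out the DTA-1 library in which Mmp9 was lowest. Over the planned settings the adjusted p of Mmp9 ranged from 9.08e-05 to 0.997.

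Since Cxcl2, Cxcl3, Cxcl10 and Ccl1 were high in the same libraries, the sequences before their starts are shown, from RefSeq (GRCm38.p6). These 4 were chosen after their values were seen. Each is the 250 bases before the RefSeq transcript start, 5′ to 3′ on the gene's strand, with matches to the NF-κB consensus in capitals. The first match of Cxcl2 (chr5:90903649-90903898) starts 97 bases before the transcript start, that of Cxcl3 (chr5:90785851-90786100) 73 bases before it, and those of Cxcl10 (chr5:92348890-92349139) 159 and 103 bases before it. Ccl1 (chr11:82179813-82180062) held no match in this window.
Cxcl2: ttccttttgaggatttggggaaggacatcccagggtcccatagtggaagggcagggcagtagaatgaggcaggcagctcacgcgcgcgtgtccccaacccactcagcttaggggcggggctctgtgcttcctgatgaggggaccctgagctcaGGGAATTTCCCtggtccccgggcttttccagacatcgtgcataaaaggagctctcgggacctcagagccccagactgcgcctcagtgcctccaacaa
Cxcl3: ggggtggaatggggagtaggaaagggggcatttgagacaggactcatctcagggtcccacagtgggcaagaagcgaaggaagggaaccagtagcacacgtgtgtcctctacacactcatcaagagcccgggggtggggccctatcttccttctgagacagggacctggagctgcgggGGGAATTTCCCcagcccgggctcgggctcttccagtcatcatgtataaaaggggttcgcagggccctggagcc
Cxcl10: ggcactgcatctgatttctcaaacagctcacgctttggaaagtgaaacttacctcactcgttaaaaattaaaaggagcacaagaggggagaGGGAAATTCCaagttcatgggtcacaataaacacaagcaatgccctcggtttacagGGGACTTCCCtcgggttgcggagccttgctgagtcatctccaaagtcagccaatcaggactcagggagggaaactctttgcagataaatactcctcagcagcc
Ccl1: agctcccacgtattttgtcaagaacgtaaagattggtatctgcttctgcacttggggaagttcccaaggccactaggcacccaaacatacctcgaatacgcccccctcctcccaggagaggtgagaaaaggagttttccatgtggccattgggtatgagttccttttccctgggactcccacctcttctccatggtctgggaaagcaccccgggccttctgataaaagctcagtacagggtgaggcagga
Both strands were searched, and in Cxcl2 and Cxcl3 a pair of matches on opposite strands overlap and form the same 11 letters. RefSeq promoters were matched for 7 of the 10 members, Ccl1, Ccl3, Ccl17, Ccl22, Cxcl2, Cxcl10 and Xcl1, and the NF-κB consensus was in 2 of them, Cxcl2 and Cxcl10. It was in 3.90% of the 32851 promoter windows of the same length. The AP-1 motif TGANTCA was in 1 of the 7, Cxcl10, and in 6.75% of all windows. A match is a description of the letters and not evidence of binding.

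No member had the mean of 10 normalized counts set for a search of genes with a like pattern, so for Cxcl2 the search was made after its values were seen. Among 8723 genes, those nearest to Cxcl2 over the 6 libraries were Grp, a neuropeptide gene, and Slc2a6, a sugar transporter gene. The root mean square difference of their log2 levels from that of Cxcl2, each centred on its own mean, was 0.0679 for Grp and 0.122 for Slc2a6, while Cxcl2 itself varied by 0.536 about its mean. Grp had 8.28, 6.44 and 9.60 normalized counts with the isotype and 6.82, 18.8 and 16.3 with DTA-1, so that its libraries stood in the same order as those of Cxcl2 except for the lowest pair. This likeness over 6 libraries is a description, made by searching many genes.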

How the data were processed

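RNA from 6 libraries of sorted ILC2s, each made from 10 ng of RNA, was sequenced on a NextSeq instrument. The authors aligned the reads and quantified genes with Partek software. The submitters' processing notes name mm10, bcl2fastq 2.17.1.14 and STAR 2.5.3a, and the annotation release, the parameters and the use of strand are not given in the sources used here. The authors deposited expected counts, in which a read can be split between genes, with no normalization; 79.7% of the values were whole (tolerance 1e-06). They were rounded before fitting. Of 49618 symbols shared with GENCODE M21 (GRCm38), 47669 had the same start and end.

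Genes were filtered with filterByExpr and DTA-1 was compared with isotype control by edgeR 4.0.16 (TMM, robust quasi-likelihood F test, no covariate, Benjamini-Hochberg adjustment over all 14361 genes), in R 4.3.3. Normalized counts are CPM after TMM normalization, with the whole library total. Alternatives used limma 3.58.1, DESeq2 1.42.0, other scalings and filters, the replicate number as a block, and each library left out in turn. On simulated data with 200 of 14361 genes changed 2-fold, 192 were called, as were 8 of the others. The changed genes were drawn above a minimum mean level that Cxcl2 alone of the members reached. The simulation therefore does not measure power at the levels of the other members. Its libraries were drawn alike within a group, whereas here DTA-1 replicate 1 lay nearer to the controls. It therefore does not give the power for Cxcl2 in these data either.

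The members and lists were chosen with earlier results of these data known. The rule for named genes took all members, the receptors, and other ligands or list genes that were called or had a mean of at least 10 normalized counts. Ccl11, Ccl7, Ccl2, Cx3cl1, Ccl25, Cxcl5 and the lists' other named genes, and the promoters shown, were chosen after their values were seen. A member of the receptor list and a member of the marker lists are not reported here.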

Additional observations from a re-analysis of the deposited data

How the results depend on the processing

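With all 6 libraries and edgeR's adjusted p, 0 genes were called, and the count stayed at 0 with DESeq2's size factors, total counts, limma-trend, a minimum of 10 counts per library and no fold-change limit. It was 25 by DESeq2's Wald test, 2 with no filter on low counts, 337 at an unadjusted p under 0.05 with 1.5-fold, and 0 to 111 with each library left out in turn, where 111 was reached without DTA-1 replicate 1. In the fits chosen after the values were seen, without DTA-1 replicate 1, it was 165 with no filter and 182 by DESeq2. With the replicate number as a block 1 gene was called. The labels do not say that the numbers pair the samples, and the deviations of same-numbered libraries correlated at −0.0069 to 0.0152. The number of members called was 0 under every planned setting. In the fits chosen afterwards it was 1 (Cxcl2, no filter) and 2 (Cxcl2 and Ccl1, DESeq2). These fits leave out the DTA-1 library in which Ccl1 had no reads and Cxcl2 was lowest, so that neither call is evidence. The log2 fold change of Cxcl2 was 0.99 in both fits. The cause of these differences was not tested. The fold changes of Ccl5, Cxcl2 and Cxcl16 were positive in every fit that held them. Cxcl16 had no value under that minimum of 10 counts, and in the main fit it passed the filter only through DTA-1 libraries. The median transcript length changed the levels of Ccl1 and Ccl5 per kb by more than the spread of their libraries, to 0.768 and 1.47. With 18 or fewer counts in all, nothing can be said of a change in Ccl3, Ccl4, Ccl17, Ccl22 or Xcl1 at this depth.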
